A study of Mus musculus with 6 samples.

Results

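A set of 10 genes of glucose breakdown and the response to low oxygen were followed in A375, an established human melanoma cell line: SLC2A1 (ENSG00000117394), HK2 (ENSG00000159399), ALDOA (ENSG00000149925), PGK1 (ENSG00000102144), ENO1 (ENSG00000074800), LDHA (ENSG00000134333), PDK1 (ENSG00000152256), VEGFA (ENSG00000112715), BNIP3 (ENSG00000176171) and NDRG1 (ENSG00000104419). They are 10 of the 62492 rows of the deposited table, selected by a fixed list of Ensembl identifiers with no threshold on a measured value, although the list was drawn up with earlier results of these data known, and all 10 were above the minimum mean of 1 FPKM used for testing. The identifiers were paired with symbols by the definition of the gene group, because the table itself gives identifiers alone. Total RNA (1 µg per sample) was read as strand-specific 150 bp pairs.

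The groups, with 2 libraries each, carried guides against ABCE1, guides against YAE1, or control guides against LacZ or Luciferase, as the design text describes. Cells of all 3 groups were transduced with lentivirus carrying Cas9, were put under puromycin (10 µg/mL) and gave RNA 7 days after that selection, so the controls share the virus, the nuclease and the drug. The genotype labels call the controls wild type, while the second knockout libraries are labelled Abce2 and Yae2 there, and the grouping followed the titles. The organism label reads Mus musculus, although the cell type label names human melanoma and the submitters' processing notes a human build, GRCh37. No group carried guides against another human gene, and nothing in the labels tells separate cultures or guides within a group apart, so the spread behind each p-value may be purely technical. ABCE1 separates ribosomal subunits after translation ends, and YAE1 acts with LTO1 in delivering an iron-sulfur cluster to ABCE1. The rows of the targeted genes and of melanoma markers were not analysed here, so neither the guides nor the cell type was checked against expression.

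Glycolysis turns glucose into pyruvate and yields ATP without oxygen. When oxygen is short, HIF transcription factors escape destruction and raise glucose uptake, nearly every glycolytic enzyme, the conversion of pyruvate to lactate and secreted signals for new vessels. Many tumours, melanoma among them, keep this programme active with oxygen present, so its genes are often abundant in tumour cell lines. SLC2A1 (the glucose transporter GLUT1), HK2 (hexokinase, which traps glucose by phosphorylation), ALDOA (aldolase), PGK1 (phosphoglycerate kinase), ENO1 (enolase) and LDHA (lactate dehydrogenase) carry the flux itself. PDK1 holds back the oxidation of pyruvate in mitochondria by phosphorylating pyruvate dehydrogenase. VEGFA is a secreted growth factor for blood vessels, BNIP3 a receptor that marks mitochondria for autophagy, and NDRG1 a cytoplasmic protein induced by hypoxia and by other stresses.

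The 10 genes covered a wide range of levels, given as FPKM, fragment numbers corrected for gene model length and for the fragments assigned in the library. ENO1 was the most abundant of the 10 in all 6 libraries, with 416 and 404 FPKM in the ABCE1 libraries, 445 and 409 FPKM in the YAE1 libraries and 497 and 485 FPKM in the controls. By mean level, LDHA, PGK1, SLC2A1, HK2, BNIP3, NDRG1, VEGFA, PDK1 and ALDOA followed in this order in each of the 3 groups. At none of the 27 steps of these orders did the ranges of neighbouring genes overlap. The order between genes also rests on gene model lengths, worked out from the values as 4416 bases for SLC2A1 and 14845 for PDK1. The spread between libraries does not test those lengths. The summed level of ENO1, LDHA and PGK1 was 88.3% to 90.7% of the summed level of the 10 genes in each library. The libraries differed little in depth: the totals worked out from the values were 15713011 and 17687994 fragments for ABCE1, 16815389 and 17065739 for YAE1, and 18399718 and 17614506 for the controls. Behind each printed level stood, by the same working, between 109.5 fragments (ALDOA) and 47721 fragments (ENO1). That is a counting error of 9.56% down to 0.458%, which covers counting only.

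**Figure D1:**
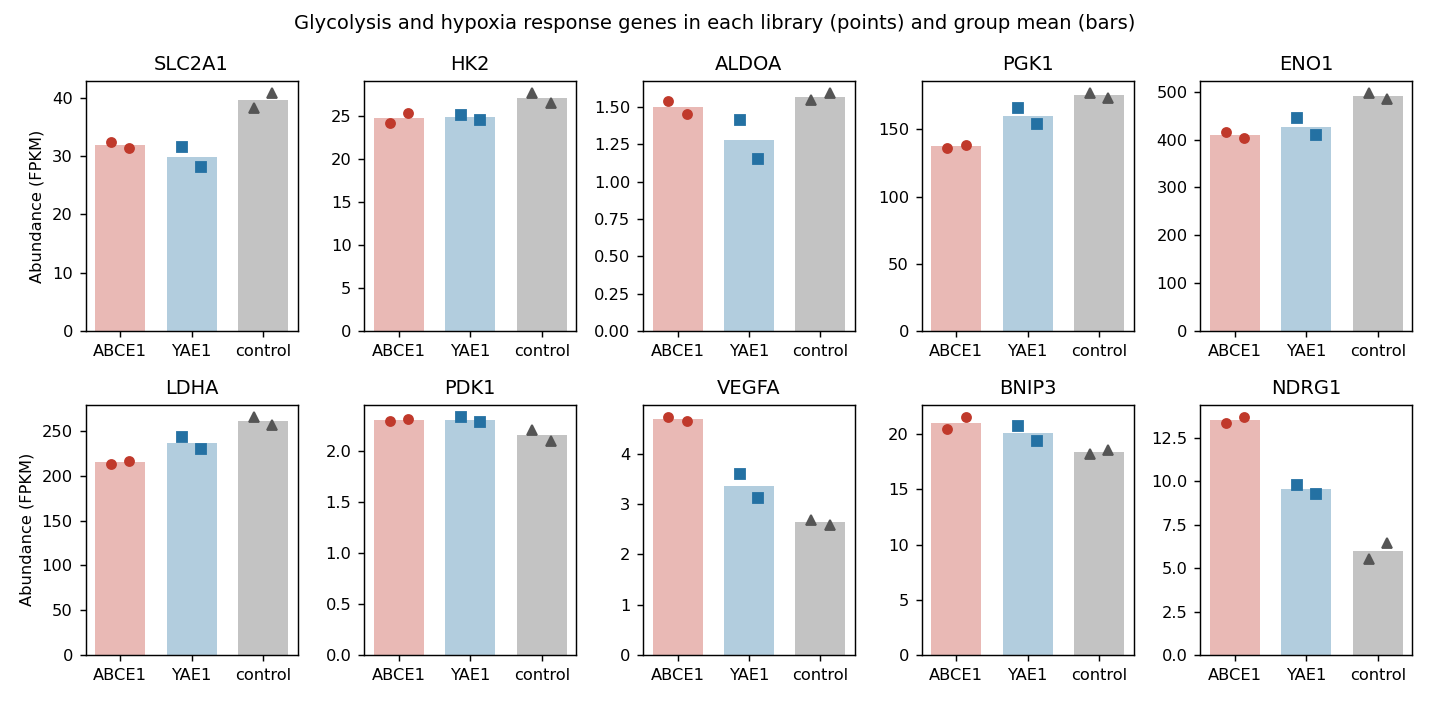
Abundance in FPKM (vertical axes, each from 0) of the 10 genes; points are the 2 libraries of a group and bars their mean, with ABCE1 left, YAE1 in the middle and control right. SLC2A1, PGK1, ENO1 and LDHA are lower in the 4 knockout libraries than in the controls, and VEGFA and NDRG1 are higher, with the ABCE1 libraries above the YAE1 libraries.

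With ABCE1 guides the group split in 2 directions. SLC2A1, PGK1, ENO1 and LDHA fell, by 16.5% to 21.5% of the control mean, and NDRG1, VEGFA and BNIP3 rose, NDRG1 to 2.26 times and VEGFA to 1.78 times the control mean. HK2, ALDOA and PDK1 did not pass the test. Thus 7 of 10 genes were called (limma, adjusted p under 0.05), against 57.9% of all 12578 genes tested, so the count over the group is near the background. Called lower were 4 of the 10 against 20.4% of all genes, and called higher 3 of the 10 against 37.5%. Of genes averaging 50 FPKM or more, among them PGK1, ENO1 and LDHA, 48.6% were called lower. The median log2 change was -0.08 over the 10 genes and 0.10 over all genes tested. In bulk RNA a change in every cell and a change in the share of cells that hold the RNA cannot be told apart.

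With YAE1 guides the same 4 genes had lower means, and SLC2A1, ENO1 and LDHA fell by 9.54% to 24.4%, while PGK1 did not pass. NDRG1 rose to 1.59 times and VEGFA to 1.27 times the control mean. In all, 5 of 10 genes were called against 51.8% of all genes, 3 lower (17.6% of all genes) and 2 higher (34.2% of all genes). Of genes averaging 50 FPKM or more, among them ENO1 and LDHA, 35.4% were called lower. The median log2 change was -0.13 over the 10 genes and 0.10 over all genes. The 2 comparisons share their control libraries, so the likeness of their directions was not taken as a result. In both comparisons the knockout and control libraries did not overlap for any of the 10 genes, but this held for 81.5% of all genes with ABCE1 guides and 77.7% with YAE1 guides.

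**Figure D2:**
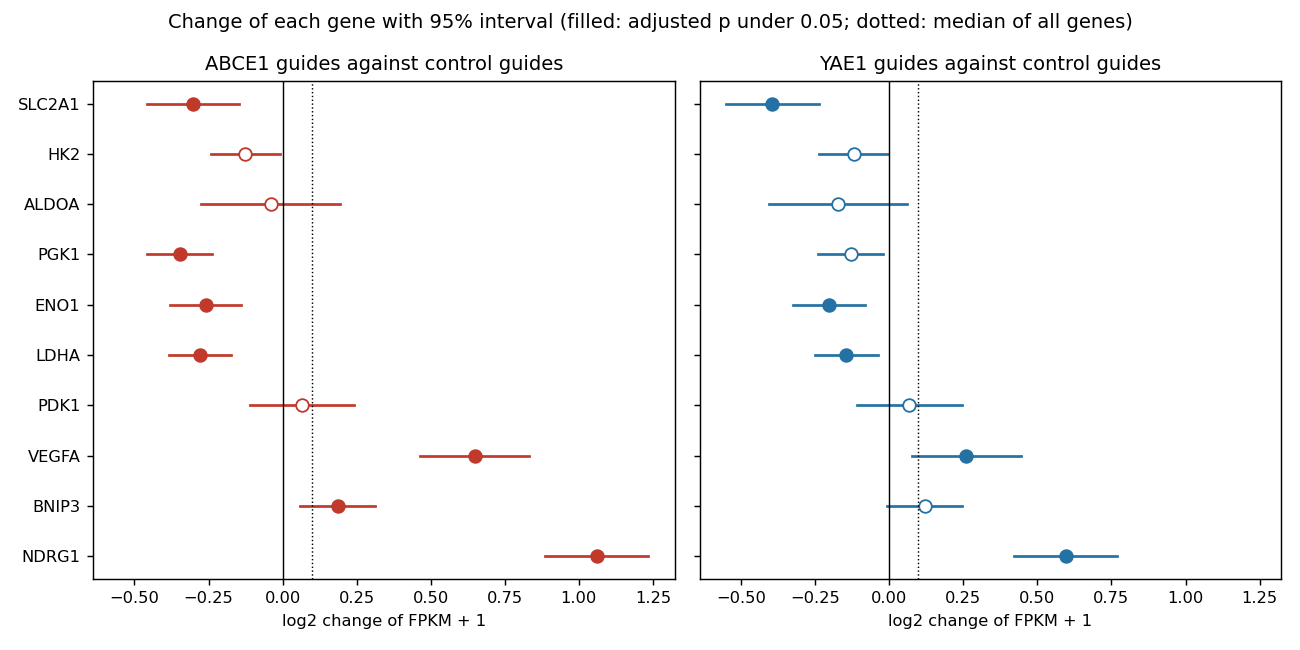
The log2 change of FPKM + 1 (horizontal axis) of each gene with its 95% interval from limma, for ABCE1 guides (left) and YAE1 guides (right) against control guides. Filled points passed the adjusted threshold of 0.05 and the dotted line marks the median change of all 12578 genes, 0.10 in both. SLC2A1, HK2, ALDOA, PGK1, ENO1, LDHA and, narrowly, PDK1 lie left of the dotted line and VEGFA, BNIP3 and NDRG1 right of it.

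Glucose uptake was represented by SLC2A1 and HK2. SLC2A1, the transporter, had 32.4 and 31.3 FPKM in the ABCE1 libraries, 31.6 and 28.1 FPKM in the YAE1 libraries, and 38.3 and 40.8 FPKM in the controls. Both knockout groups lay wholly below the controls and overlapped each other. Its log2 change was -0.30 ± 0.07 with ABCE1 guides (SE, limma adjusted p = 0.00712) and -0.39 ± 0.07 with YAE1 guides (limma adjusted p = 0.00291), and both calls held under all 15 alternatives. Among all genes tested, 15.4% had a lower log2 change with ABCE1 guides and 9.85% with YAE1 guides. HK2, the next step, had 24.1 and 25.3 FPKM in the ABCE1 libraries, 25.1 and 24.5 FPKM in the YAE1 libraries, and 27.6 and 26.5 FPKM in the controls. The knockout libraries were all below the controls, by a narrower margin than for SLC2A1. The log2 change was -0.13 (95% interval -0.24 to -0.01, limma adjusted p = 0.0623) with ABCE1 guides and -0.12 (-0.24 to -0.01, limma adjusted p = 0.0751) with YAE1 guides, and neither passed. Centred on the median gene HK2 passed in both (limma adjusted p = 0.00435 and 0.0119, ranges over the alternatives 0.00435 to 0.279 and 0.0119 to 0.317), and with quantile normalization in the ABCE1 comparison (0.0281).

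Of the lower enzymes, PGK1, which makes ATP, had 136 and 139 FPKM in the ABCE1 libraries, 166 and 154 FPKM in the YAE1 libraries, and 177 and 173 FPKM in the controls. The 3 groups did not overlap, and the ABCE1 libraries were the lowest. PGK1 fell with ABCE1 guides, by 21.5% in mean level (log2 change -0.35 ± 0.05, limma adjusted p = 0.000873), a call that held under all 15 alternatives, although quantile normalization reduced the change to -0.18. With YAE1 guides its log2 change was -0.13 (95% interval -0.24 to -0.02, limma adjusted p = 0.0525), just short of the threshold. It passed under 4 of 15 alternatives, among them without YAE1 replicate 1 (-0.18, limma adjusted p = 0.0112, range over the alternatives 0.0108 to 0.219). ENO1, whose levels are given above, makes phosphoenolpyruvate. It fell by 16.5% with ABCE1 guides (log2 change -0.26 ± 0.05, limma adjusted p = 0.00454) and by 13.1% with YAE1 guides (-0.20 ± 0.05, limma adjusted p = 0.0147). The YAE1 call held under 12 of 15 alternatives. It was lost with no filter (limma adjusted p = 0.093), without control replicate 1 (log2 change -0.19) and without control replicate 2 (-0.22). The ABCE1 call for ENO1 was lost with quantile normalization (-0.06, limma adjusted p = 0.168, range 0.000116 to 0.168), while centring on the median gene gave -0.40. By rank, which no scaling of a library can move, ENO1 was the gene number 47 and 49 in the ABCE1 libraries, 54 and 54 in the YAE1 libraries, and 44 and 47 in the controls. The ABCE1 and control ranks of ENO1 thus met, whereas those of PGK1 were apart, at 200 and 195 in the ABCE1 libraries, 173 and 180 in the YAE1 libraries, and 162 and 168 in the controls.

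ALDOA, the aldolase of muscle and of most cultured cells, was listed at 1.54 and 1.45 FPKM in the ABCE1 libraries, 1.41 and 1.15 FPKM in the YAE1 libraries, and 1.54 and 1.59 FPKM in the controls. That is 270 to 355 times below ENO1 of the same library, and rests on 109.5 to 158.5 fragments. The row may not hold the full signal of the gene: whether another gene model over the same locus takes its fragments was not tested, and the sources used here do not give how the authors assigned fragments shared between models. The log2 change was -0.04 (95% interval -0.27 to 0.19, limma adjusted p = 0.744) with ABCE1 guides and -0.17 (-0.41 to 0.06, limma adjusted p = 0.178) with YAE1 guides. Neither passed, and the intervals leave room for a fall as large as that of ENO1. With quantile normalization the YAE1 change was called (-0.35, limma adjusted p = 0.0268, range over the alternatives 0.0268 to 0.513). PGK1, ENO1 and LDHA have processed pseudogenes, and how fragments matching several copies were counted is likewise not given.

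For the fate of pyruvate, LDHA was called lower in both comparisons, less firmly with YAE1 guides, and PDK1 passed in neither. LDHA, which makes lactate, had 213 and 217 FPKM in the ABCE1 libraries, 243 and 230 FPKM in the YAE1 libraries, and 266 and 256 FPKM in the controls. The 3 groups again did not overlap, with ABCE1 lowest and control highest, as for PGK1. LDHA fell by 17.7% with ABCE1 guides (log2 change -0.28 ± 0.04, limma adjusted p = 0.00182) and by 9.54% with YAE1 guides (-0.14 ± 0.04, limma adjusted p = 0.0312). The ABCE1 call was lost with quantile normalization (-0.04, limma adjusted p = 0.342, range over the alternatives 4.69e-05 to 0.342). The YAE1 call held under only 7 of 15 alternatives. It was lost with no filter (limma adjusted p = 0.121), with only the 4 libraries compared (0.0631) and when moderated without a trend (0.0808). It was also lost without control replicate 1 (log2 change -0.12), control replicate 2 (-0.17), ABCE1 replicate 1 (-0.14), ABCE1 replicate 2 (-0.14) or YAE1 replicate 2 (-0.10). Centring on the median gene gave -0.24. PDK1, the kinase that blocks pyruvate oxidation, had 2.30 and 2.31 FPKM in the ABCE1 libraries, 2.34 and 2.28 FPKM in the YAE1 libraries, and 2.21 and 2.10 FPKM in the controls. Its knockout libraries lay slightly above the controls, and its log2 change of 0.07 in both comparisons did not pass (limma adjusted p = 0.48 for ABCE1 and 0.467 for YAE1, 95% intervals -0.11 to 0.24). Centring on the median gene and quantile normalization turned the sign of PDK1 in both comparisons, with no call. LDHA stood at 92.9 and 93.9 times PDK1 in the ABCE1 libraries, 104 and 101 times in the YAE1 libraries, and 120 and 122 times in the controls.

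Of the other hypoxia targets, VEGFA, BNIP3 and NDRG1, all 3 rose with ABCE1 guides, and NDRG1 and VEGFA rose with YAE1 guides. NDRG1 had 13.4 and 13.7 FPKM in the ABCE1 libraries, 9.81 and 9.31 FPKM in the YAE1 libraries, and 5.55 and 6.44 FPKM in the controls. The groups were well apart, with the YAE1 libraries between the ABCE1 libraries and the controls. NDRG1 rose with ABCE1 guides (log2 change 1.06 ± 0.07, limma adjusted p = 6.67e-05) and with YAE1 guides (0.60 ± 0.07, limma adjusted p = 0.000837), and both calls held under all 15 alternatives, with log2 changes of 0.92 to 1.18 and 0.50 to 0.69. It was the only one of the 10 whose called change was at least 2-fold, which 6.03% of all genes reached with ABCE1 guides, and 96.1% of all genes had a lower log2 change. VEGFA had 4.75 and 4.66 FPKM in the ABCE1 libraries, 3.60 and 3.12 FPKM in the YAE1 libraries, and 2.70 and 2.58 FPKM in the controls. These groups did not overlap either, and stood in the same order as for NDRG1. VEGFA rose with ABCE1 guides (0.65 ± 0.08, limma adjusted p = 0.000532), a call that held under all 14 alternatives that kept the gene.

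With YAE1 guides VEGFA rose as well (log2 change 0.26 ± 0.08, limma adjusted p = 0.0279), but this call held under only 5 of 14 alternatives. It was lost with centring on the median gene (0.16, limma adjusted p = 0.135) and with quantile normalization (0.13, limma adjusted p = 0.195). No filter (limma adjusted p = 0.0843) and only the 4 libraries compared (0.0524) lost it as well. So did leaving out control replicate 1 (log2 change 0.28), control replicate 2 (0.24), ABCE1 replicate 1 (0.26), ABCE1 replicate 2 (0.26) or YAE1 replicate 1 (0.18). Over the alternatives the limma adjusted p ranged from 0.00197 to 0.195. BNIP3 had 20.5 and 21.6 FPKM in the ABCE1 libraries, 20.8 and 19.4 FPKM in the YAE1 libraries, and 18.2 and 18.6 FPKM in the controls. Its knockout libraries were above the controls and overlapped each other. BNIP3 rose by 14.5% with ABCE1 guides (0.19 ± 0.05, limma adjusted p = 0.0223), beside a median of 0.10 over all genes, and 58.5% of all genes had a lower log2 change. This call held under 9 of 15 alternatives, with limma adjusted p from 0.011 to 0.502. It was lost with centring on the median gene (0.05, limma adjusted p = 0.502), quantile normalization (0.12, 0.0874) and no filter (0.059). It was also lost without control replicate 1 (log2 change 0.17), control replicate 2 (0.20) or ABCE1 replicate 2 (0.15). With YAE1 guides the log2 change of BNIP3 was 0.12 (95% interval -0.01 to 0.25, limma adjusted p = 0.102) and did not pass, while without YAE1 replicate 2 it did (limma adjusted p = 0.0486, range 0.0486 to 0.767).

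The scale of the libraries bears on the smaller of these changes. Most called genes were higher in the knockouts, 64.8% of calls with ABCE1 guides and 66.0% with YAE1 guides, and after each library was centred on its median gene these shares were 45.5% and 49.1%. Centring moved the median change of all genes by -0.14 with ABCE1 guides and by -0.10 with YAE1 guides. Relative to the median of all genes, PGK1, SLC2A1, LDHA and ENO1 stood at -0.45, -0.40, -0.38 and -0.36 with ABCE1 guides, and VEGFA and NDRG1 at 0.55 and 0.96. With YAE1 guides the same genes stood at -0.23, -0.49, -0.24, -0.30, 0.16 and 0.50. Calls of lower were common at high levels: among 777 genes averaging 50 FPKM or more, 48.6% were called lower with ABCE1 guides and 35.4% with YAE1 guides. PGK1, ENO1 and LDHA belong to this class. The median log2 change of these 3 genes was -0.28 with ABCE1 guides, against -0.14 for the class, and -0.14 with YAE1 guides, against -0.02 for the class.

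Ratios of 2 genes within a library do not depend on its scaling. ENO1, the divisor here, was itself lower in the knockouts, by 16.5% with ABCE1 guides and 13.1% with YAE1 guides. A ratio to ENO1 is raised by that fall as well as by any rise of the other gene. NDRG1 stood at 3.22% and 3.40% of ENO1 in the ABCE1 libraries, 2.20% and 2.28% in the YAE1 libraries, and 1.12% and 1.33% in the controls. VEGFA stood at 1.14% and 1.15% of ENO1 in the ABCE1 libraries, 0.810% and 0.764% in the YAE1 libraries, and 0.542% and 0.532% in the controls. BNIP3 stood at 4.92% and 5.34% of ENO1 in the ABCE1 libraries, 4.67% and 4.74% in the YAE1 libraries, and 3.66% and 3.82% in the controls. For these 3 genes every knockout library was above both controls. The same held for HK2, by a smaller margin, at 5.79% and 6.27% of ENO1 in the ABCE1 libraries, 5.65% and 5.98% in the YAE1 libraries, and 5.56% and 5.45% in the controls. In FPKM, however, HK2 was lower in every knockout library than in both controls. LDHA was 51.2% and 53.7% of ENO1 in the ABCE1 libraries, 54.6% and 56.2% in the YAE1 libraries, and 53.5% and 52.9% in the controls. The ABCE1 range took in the controls, and the YAE1 libraries lay above both other groups. PGK1 was 32.8% and 34.3% of ENO1 in the ABCE1 libraries, 37.3% and 37.8% in the YAE1 libraries, and 35.6% and 35.7% in the controls, so the 2 knockout groups lay on opposite sides of the controls. SLC2A1 was 7.79% and 7.75% of ENO1 in the ABCE1 libraries, inside the control range of 7.70% to 8.41%, and 7.11% and 6.88% in the YAE1 libraries, below it. These ratios are given without a test, since an exact permutation of 2 libraries against 2 cannot go below p = 0.333.

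**Figure D3:**
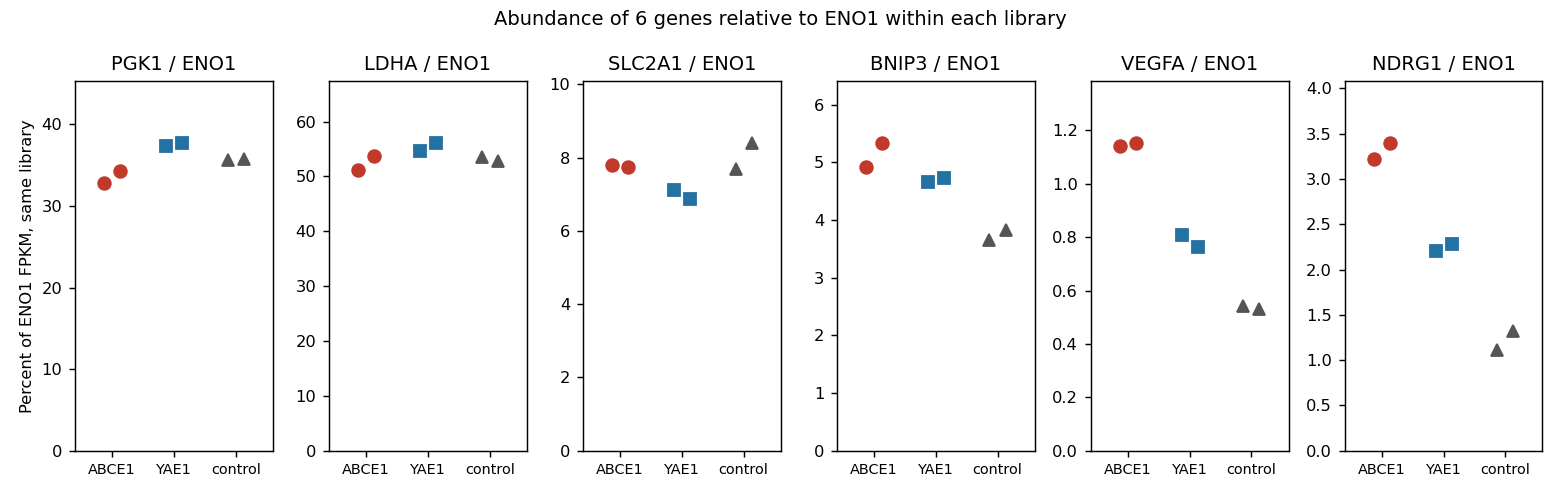
Level of 6 genes as a percent of the ENO1 level in the same library (vertical axes, each from 0), a point for each of the 2 libraries of a group, with ABCE1 left and control right. LDHA lies between 51.2% and 56.2%, with the YAE1 libraries above the other groups. NDRG1 and VEGFA are lowest in the controls and highest in the ABCE1 libraries.

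Rank within a library gave the same order of groups as FPKM for NDRG1 and VEGFA. For BNIP3 the knockout groups overlapped each other in rank, as they did in FPKM. NDRG1 was gene number 3604 and 3526 from the top in the ABCE1 libraries, 4590 and 4826 in the YAE1 libraries, and 6386 and 5880 in the controls. VEGFA was number 7389 and 7432 in the ABCE1 libraries, 8287 and 8812 in the YAE1 libraries, and 8907 and 9058 in the controls. Both ranked higher in every knockout library than in the controls, and highest in the ABCE1 libraries. BNIP3 was number 2305 and 2181 in the ABCE1 libraries and 2200 and 2376 in the YAE1 libraries, which overlapped, and 2491 and 2459 in the controls. SLC2A1 ranked lower in the knockouts, at 1339 and 1395 (ABCE1) and 1358 and 1519 (YAE1), against 1075 and 988 in the controls. HK2 did so too, at 1908 and 1797 (ABCE1) and 1762 and 1812 (YAE1) against 1579 and 1652 (control), and so did ALDOA. PDK1 also ranked lower, at 10072 and 9977 (ABCE1) and 9845 and 9945 (YAE1) against 9585 and 9742 (control), although its FPKM was slightly higher. A lower rank thus did not require a lower FPKM. For LDHA the ABCE1 ranks, 107 and 101, overlapped those of the controls, 94 and 103, and the YAE1 ranks were 109 and 111.

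The knockouts were then set against each other. With YAE1 guides NDRG1 and VEGFA were lower than with ABCE1 guides, by 29.5% and 28.5% in mean level, and PGK1 was 16.4% higher. These 3 were called, against 34% of all genes in this comparison, so the count is near the background: 2 were lower (18.7% of all genes) and 1 was higher (15.3%). The libraries of the 2 knockouts did not overlap for 5 of the 10 genes, against 70.2% of all genes. The log2 difference was -0.46 ± 0.07 for NDRG1 (limma adjusted p = 0.00611), -0.39 ± 0.08 for VEGFA (limma adjusted p = 0.0117) and 0.22 ± 0.05 for PGK1 (limma adjusted p = 0.0147). The call for NDRG1 held under all 15 alternatives, that for VEGFA under 11 of 14 and that for PGK1 under 12 of 15. Those for VEGFA and PGK1 were lost without ABCE1 replicate 1 (limma adjusted p = 0.0638 and 0.0857) and without ABCE1 replicate 2 (0.0557 and 0.0661), within ranges of 0.000179 to 0.0638 and 0.002 to 0.0857. Quantile normalization reduced the PGK1 difference to 0.11 and kept its call.

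LDHA, higher by 9.89% in the YAE1 libraries, just missed the threshold (log2 difference 0.13, 95% interval 0.03 to 0.24, limma adjusted p = 0.0552), and without YAE1 replicate 2 it passed (limma adjusted p = 0.0238, range 0.0222 to 0.224). Quantile normalization turned the LDHA difference to -0.06, with no call (limma adjusted p = 0.21). SLC2A1 did not pass (-0.09, 95% interval -0.25 to 0.06, limma adjusted p = 0.31), nor did ENO1 (0.06, -0.06 to 0.18, limma adjusted p = 0.424), BNIP3 (-0.07, -0.19 to 0.06, limma adjusted p = 0.372) or ALDOA (-0.13, -0.37 to 0.10, limma adjusted p = 0.329). For HK2 and PDK1 the differences were 0.00 with 95% intervals of -0.11 to 0.12 and -0.17 to 0.18. The intervals bound these differences and do not show that the levels were alike. For ENO1 quantile normalization turned the difference to -0.13 and called it lower with YAE1 guides (limma adjusted p = 0.0189, range 0.0189 to 0.933).

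**Figure D4:**
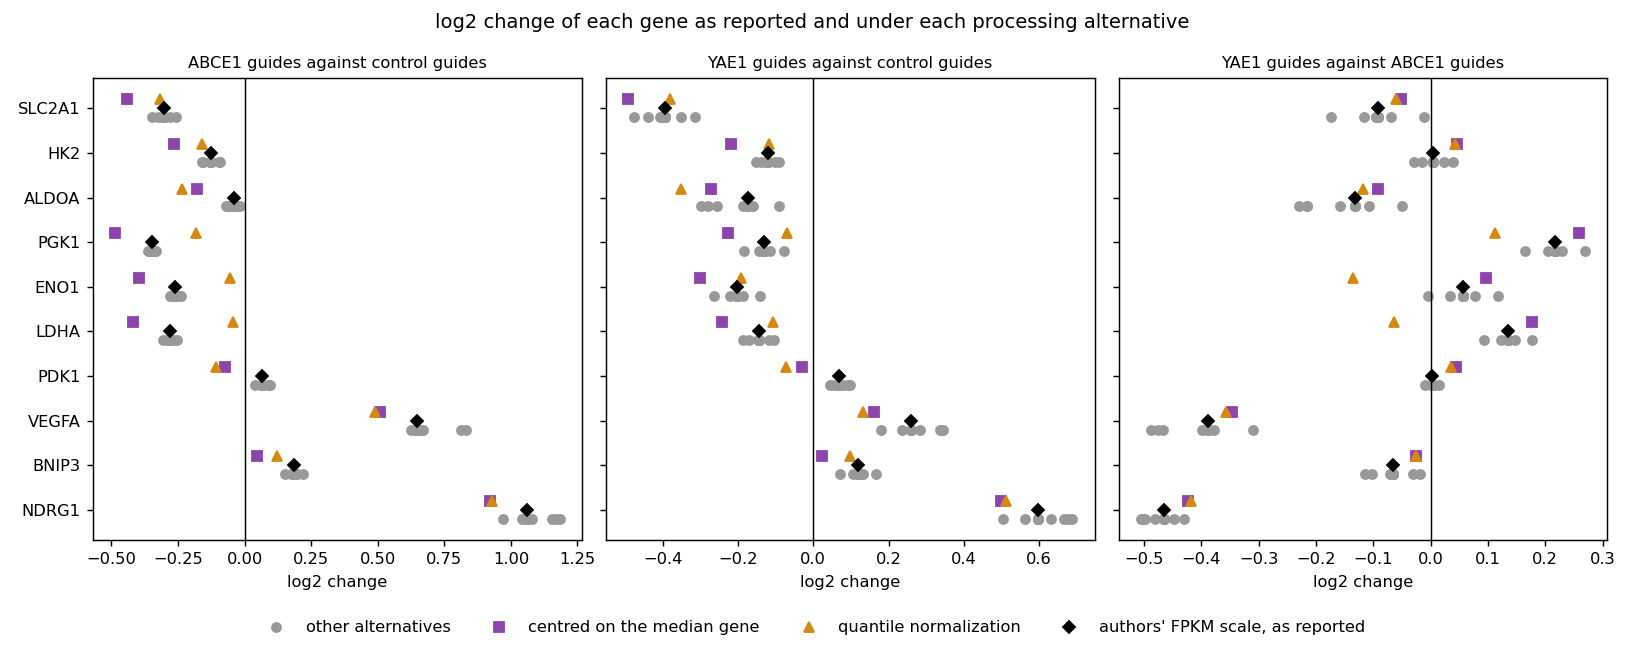
The log2 change (horizontal axis) of each gene in the 3 comparisons, as reported (black diamonds), after centring on the median gene (squares), after quantile normalization (triangles) and under the other alternatives (grey circles). In both knockouts against control NDRG1, VEGFA and BNIP3 stay right of 0, and the other genes stay left of it except PDK1, which changes side. Between the knockouts ENO1, LDHA, HK2 and PDK1 each lie on both sides of 0.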

How the data were processed

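The deposited table holds FPKM values of 62492 genes in 6 libraries, which the authors scaled by gene model length and by each library's fragments; per the submitters' processing notes the build is GRCh37, and the sources used here name no aligner, counting program or annotation release. None of the identifiers matched the mouse reference tables (0 of 62492), so the further lists of glycolysis, oxygen sensing, hypoxia and pyruvate genes, the targeted genes and melanoma markers were not analysed here, nor were positions or sequences. All 10 genes of the rule are named, whatever their values. The members and lists were chosen with earlier results of these data known. The 12578 genes averaging 1 FPKM or more were tested on log2(FPKM + 1), which understates the change of low genes, with limma 3.58.1 in R 4.3.3: group means fitted to all 6 libraries at once, moderated with a trend in mean level (3 residual and 3.62 prior degrees of freedom), and Benjamini-Hochberg adjusted over every gene tested, at 0.05. It was tested on simulated data. Fragment numbers, multiples of 0.5, were worked out from the exact ratios of low values between libraries, for 38267 of 38269 genes above 0 with a relative tolerance of 1e-09. A factor common to all values of a gene would not be seen. The step of 0.5 assumes that the whole numbers found are read ends of pairs, which was not tested. Were they fragments, the totals would be larger and the counting errors smaller.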

Additional observations from a re-analysis of the deposited data

Results flagged for a closer look

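The effects of the 2 knockouts, each set against the same controls, differed for 3 of the 10 genes by the test of the difference itself. The log2 change of NDRG1 was smaller under YAE1 guides than under ABCE1 guides (a difference of -0.464, limma adjusted p = 0.00611), as was that of VEGFA (-0.389, limma adjusted p = 0.0117). PGK1 was less reduced with YAE1 guides (difference 0.217, limma adjusted p = 0.0147). Of these calls only that of NDRG1 held under all its alternatives, with 11 of 14 for VEGFA and 12 of 15 for PGK1. Of all genes tested, 34% differed between the knockouts. Groups of 2 libraries are too small for a search for outliers.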

How the results depend on the processing

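The 15 alternatives include voom on the worked-out fragment numbers, which was added after the data were seen. With ABCE1 guides the 7 called genes of the group numbered 5 to 7 under all of them. With YAE1 guides against control, 2 genes were called with no filter (1 higher, 1 lower), where 13.3% of all genes were called, 3 with only the 4 libraries compared (1 higher; 48.4% of all genes), and 2 to 5 when each library was left out in turn (1 to 3 higher, 1 to 4 lower). The higher count was also 1 with a mean of at least 5 FPKM, which drops ALDOA, PDK1 and VEGFA, with centring and with quantile normalization, and the lower count was 5 with centring. Between the knockouts 1 gene was called with no filter (0 higher, 1 lower; 5.46% of all genes), 2 were higher with a mean of at least 5 FPKM (1 lower), with centring and with voom, and leaving out libraries gave 1 to 4 called, 0 to 2 higher and 1 to 2 lower. Quantile normalization turned ENO1 between the knockouts to -0.135. Of all genes, a mean of at least 5 FPKM gave 4761 called with ABCE1 guides and 2845 higher, and 2621 higher with YAE1 guides, with fewer genes tested. Centring gave 3915 lower with ABCE1 guides. Between the knockouts no filter gave 2091 called, 907 higher and 1184 lower, and leaving out libraries gave 1811 to 3721 called, 835 to 1641 higher and 976 to 2080 lower. Otherwise the cause of these moves was not tested. Same-numbered libraries did not deviate together (r = -0.053 to -0.009 between groups), which cannot show whether they shared a culture or a batch. With the replicate block 7, 5 and 3 genes of the group were called, the same counts as without it. Counting error, up to 9.56%, limits ALDOA most.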
